A study of Mus musculus with 9 samples.

Results

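Alpha-defensins are small antimicrobial peptides held together by disulfide bonds, and 10 of their genes, *Defa3*, *Defa5*, *Defa17*, *Defa20*, *Defa21*, *Defa22*, *Defa23*, *Defa24*, *Defa26* and *Defa30*, were followed here through 7 RNA-seq libraries of mouse intestinal organoids. The members were chosen by gene symbol, matched to the Ensembl identifiers of the deposited tables, and make up 10 of 54838 genes listed. In the mouse small intestine these peptides, also called cryptdins, are made by Paneth cells at the crypt base, stored in secretory granules and released into the crypt lumen. Each is translated as a precursor, and the matrix metalloproteinase *Mmp7* cleaves the precursor to the active peptide. Paneth cells arise from the secretory lineage, and Wnt signalling through TCF/LEF factors is known to drive their gene program.

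The study asked how loss of *Mettl3*, the catalytic subunit of the m6A RNA methyltransferase, affects death of intestinal epithelial cells, and whether Nec-1 (necrostatin-1, a RIPK1 inhibitor) changes it. All groups were organoids grown in ENR medium from small intestinal crypts of male mice of 2 to 4 months with the genotype *Vil-CreERT2*;*Mettl3* fl/fl, on a background labelled C57BL/6. EtOH DMSO (2 libraries) received the vehicle of each agent, and EtOH Nec-1 (2 libraries, "Nec-1 alone" below) received EtOH for 2 days and Nec-1 for 5 days. 4-OHT DMSO (2 libraries) received 0.5 µM 4-OHT (4-hydroxytamoxifen) for 2 days and DMSO for 5 days, and 4-OHT Nec-1 (1 library, "both agents" below) received 4-OHT and Nec-1 over the same times. The Nec-1 concentration is given as 5 µM in a legend and as 10 µM in the methods. The villin promoter confines CreERT2 to the intestinal epithelium, and every group carries both the Cre and the floxed allele. No library here came from organoids without Cre given 4-OHT, so that exposure to 4-OHT and excision of *Mettl3* cannot be told apart. Whether libraries of a group came from separate mice or cultures is not given, and a p-value then measures the spread between these libraries, which may be technical.

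Values are FPKM, fragments scaled to transcript length and to the mapped fragments of the library, so levels of different genes can be compared per length. FPKM summed to 450207 to 498712 per library, and no fragment counts were used, which leaves the absolute depth unknown. *Mettl3* was at 2.70 and 2.71 FPKM in EtOH DMSO, 2.41 and 2.47 with Nec-1 alone, 3.72 and 4.14 in 4-OHT DMSO and 3.36 with both agents. Relative to EtOH DMSO it was thus higher, not lower, in 4-OHT DMSO (log2 fold change 0.41, SE 0.098, limma adjusted p = 0.0231), a call that held in 8 of 16 alternatives and not with median centring (adjusted p = 0.0796). A whole-gene FPKM does not separate the floxed part of *Mettl3* from the rest, and 4-OHT in the group names below means the label. Markers of cells from outside the epithelium were low in every library, with the 6 immune markers summing to 2.81 to 8.72 FPKM and the 6 fibroblast markers to 0.507 to 1.15 FPKM. The Paneth cell marker *Lyz1* was at 783 to 1639 FPKM.

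In the GRCm38.p6 annotation, the RefSeq version of the mm10 build, the 10 genes lay on chromosome 8 between positions 21025545 and 21735471, a stretch of 709.9 kb. Their spans ran from 805 to 982 bp. The promoter table used here held windows of 300 bases (250 before to 50 after the annotated start) for 5 of the 10 members, namely *Defa20*, *Defa21*, *Defa22*, *Defa23* and *Defa30*. A stretch of 116 bases around the TATA box is shown for these, so that members with the same or nearly the same promoter can be told from the others. Capitals mark the TATA box (TATAAA) and matches to the TCF/LEF motif, which read ATCAAAG on this strand and CTTTGAT on the other. All sequences are from RefSeq and run 5′ to 3′ on the plus strand of GRCm38.p6.
*Defa20* (chr8:21509137-21509252): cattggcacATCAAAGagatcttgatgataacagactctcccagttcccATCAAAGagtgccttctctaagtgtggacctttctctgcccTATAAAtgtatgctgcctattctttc
*Defa21* (chr8:21025424-21025539): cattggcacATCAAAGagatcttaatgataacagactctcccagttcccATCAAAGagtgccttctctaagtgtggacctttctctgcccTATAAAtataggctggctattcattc
*Defa22* (chr8:21162156-21162271): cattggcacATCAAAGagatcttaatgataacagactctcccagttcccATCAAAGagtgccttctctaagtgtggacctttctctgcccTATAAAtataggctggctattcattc
*Defa23* (chr8:21054917-21055032): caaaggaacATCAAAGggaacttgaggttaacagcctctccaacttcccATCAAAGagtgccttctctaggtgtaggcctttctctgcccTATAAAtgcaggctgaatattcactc
*Defa30* (chr8:21134499-21134614): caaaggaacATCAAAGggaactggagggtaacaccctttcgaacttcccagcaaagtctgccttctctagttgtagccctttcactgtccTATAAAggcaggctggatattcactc

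The promoters of *Defa21* and *Defa22* were identical over the whole window of 300 bases. *Defa20* had the same window as *Defa2*, an alpha-defensin outside the 10, and *Defa23* the same as *Defa31*. *Defa20* differed from *Defa21* and *Defa22* at 7 of the 300 bases. Over the 116 bases shown, identity between pairs of members ran from 74.1% (*Defa20* and *Defa30*) to 100% (*Defa21* and *Defa22*). Motifs were searched on both strands of the windows of 300 bases. A TCF/LEF match (CTTTGAA or CTTTGAT, or else CTTTGTA or CTTTGTT) was found in 5 of 5 member windows and in 16.9% of the 32851 windows of all genes. At least 2 matches stood in 4 of 5 member windows, the exception being *Defa30*, and in 1.94% of all windows. In the stretches shown, the first match began 81 bases before the TATA box in each member, and the second began 41 bases before it in *Defa20*, *Defa21*, *Defa22* and *Defa23*. TATAAA was present in 5 of 5 member windows and in 13.6% of all windows. No member window held a CDX match (TTTATTG or TTTATGG), a motif that 7.20% of all windows held. An AP-1 match (TGANTCA) stood in 1 of 5 member windows, that of *Defa20*, against 7.81% of all windows. Of 11 windows of other alpha-defensin genes, 8 held a TCF/LEF match, 5 held at least 2, and 10 held TATAAA. A CDX match stood in 0 of these 11 and an AP-1 match in 2. The TCF/LEF and TATAAA matches were thus not particular to the members. These are matches of letters only, and binding was not measured here. Alpha-defensin genes are short paralogs, and how fragments were divided between them was not tested, so single values are given below together with the family sum.

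All 10 genes were at 1 FPKM or more in each of the 7 libraries, so that none entered the tests through one group alone. In EtOH DMSO, the order of mean FPKM was *Defa24*, *Defa17*, *Defa3*, *Defa30*, *Defa20*, *Defa23*, *Defa22*, *Defa21*, *Defa5* and *Defa26*, and no neighbours in this order overlapped between their libraries. *Defa24* was the most abundant member, at 4333 and 4194 FPKM, and *Defa26* the least, at 54.4 and 48.1 FPKM. *Defa24* alone took 40.0% to 43.9% of the summed FPKM of the 10 genes in the 7 libraries. *Defa17* took 14.9% to 19.6% of it and *Defa5* 0.75% to 1.60%.

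The same order held in EtOH Nec-1. In 4-OHT DMSO, *Defa30* (mean 3310 FPKM) stood above *Defa3* (mean 3030 FPKM), though their libraries overlapped, as did those of *Defa22* and *Defa21*. *Defa30* was also above *Defa3* in 4-OHT Nec-1, at 2195 against 2126 FPKM.

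**Figure D1:**
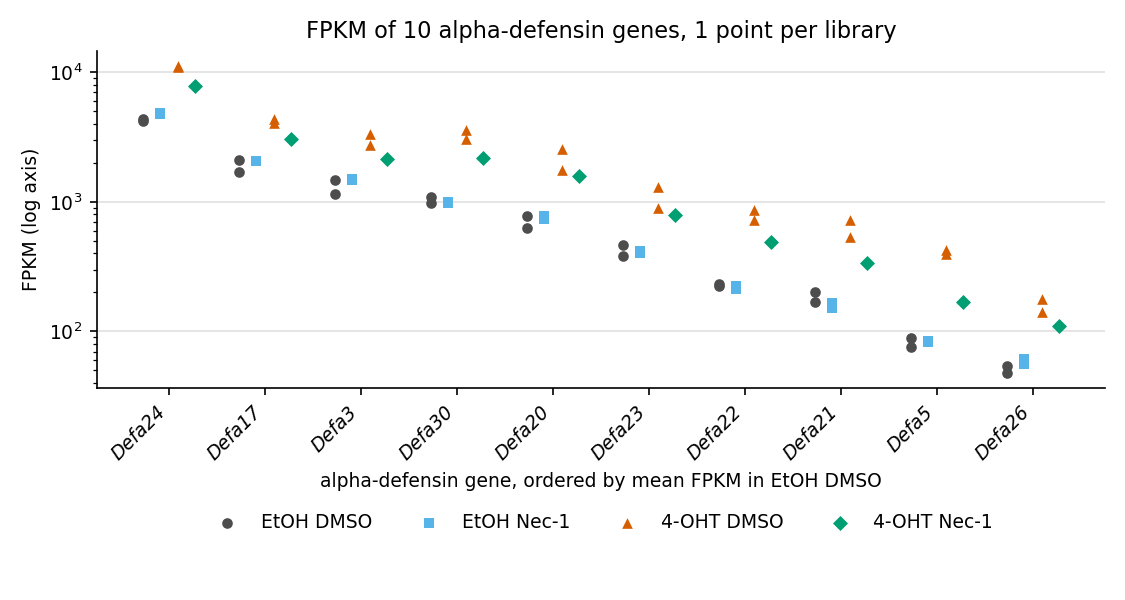
FPKM (log axis) of the 10 alpha-defensin genes, ordered by mean FPKM in EtOH DMSO, with 1 point per library and a colour and shape per group. For every gene the 2 points of 4-OHT DMSO lie above the 4 EtOH points, and the 4-OHT Nec-1 point lies between. The share of all genes ordered in this way was not counted.

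The first comparison, 4-OHT DMSO with EtOH DMSO, asks what the 4-OHT treatment did without inhibitor. RNA of all 10 alpha-defensins was higher in 4-OHT DMSO, by 2.21 to 5.02 times in mean FPKM. Under limma on log2(FPKM + 1) with Benjamini-Hochberg adjustment over 12702 genes, 10 of 10 passed an adjusted p of 0.05 in the higher direction and 0 in the lower one, against 24.5% and 16.7% of all genes tested. The median log2 fold change was 1.61 over the members and 0.077 over all genes. In bulk RNA, more Paneth cells and more of these transcripts per Paneth cell cannot be told apart.

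FPKM summed over the 10 genes came to 10822 and 9556 in EtOH DMSO, 11133 and 11010 with Nec-1 alone, 27320 and 26412 in 4-OHT DMSO and 18735 with both agents. As a share of all FPKM, the sum was 2.27% and 2.12%, 2.23% and 2.25%, 5.60% and 5.43%, and 3.76% in the same order. Both 4-OHT DMSO libraries were thus above every other library, with the 4-OHT Nec-1 library next and the 4 EtOH libraries lowest and close together. The ratio of group means was 2.64 for 4-OHT DMSO over EtOH DMSO, or 1.40 on the log2 scale. Replicates of a group differed with a pooled SD of 0.0762 in log2 of the sum. The ratio did not rest on the most abundant gene, since without *Defa24* it was 1.41 on the log2 scale.

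**Figure D2:**
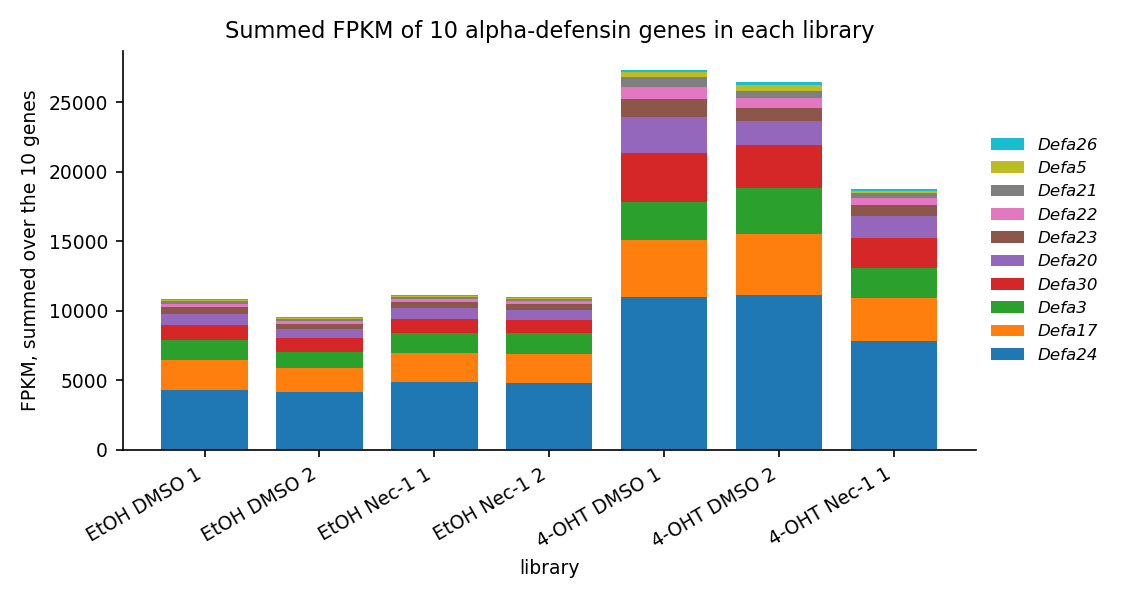
Summed FPKM of the 10 alpha-defensin genes in each of the 7 libraries, with each bar divided by gene. The bars stand at 9556 to 11133 FPKM in the 4 EtOH libraries, at 26412 and 27320 in 4-OHT DMSO and at 18735 in 4-OHT Nec-1, and *Defa24* is the broadest layer of each.

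Among the abundant members, *Defa24* was at 4333 and 4194 FPKM in EtOH DMSO, 4856 and 4801 with Nec-1 alone, 10976 and 11158 in 4-OHT DMSO and 7851 with both agents. Its 4-OHT DMSO libraries lay close together and well above the others (log2 fold change 1.38, SE 0.11, limma adjusted p = 9.1e-04). *Defa17* was at 2117 and 1704 FPKM in EtOH DMSO, 2081 and 2076 with Nec-1 alone, 4075 and 4352 in 4-OHT DMSO and 3077 with both agents. With a log2 fold change of 1.15 (SE 0.14, limma adjusted p = 0.0027) it was the member with the smallest change. *Defa3* was at 1468 and 1149 FPKM in EtOH DMSO, 1487 and 1500 with Nec-1 alone, 2745 and 3315 in 4-OHT DMSO and 2126 with both agents. Its replicates were further apart than those of *Defa24*, and its log2 fold change was 1.22 (SE 0.16, limma adjusted p = 0.0037).

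*Defa30* was at 1090 and 989 FPKM in EtOH DMSO, 995 and 974 with Nec-1 alone, 3562 and 3058 in 4-OHT DMSO and 2195 with both agents. Its log2 fold change was 1.67 (SE 0.12, limma adjusted p = 6.9e-04). Its share of the family sum went from 10.1% and 10.3% in EtOH DMSO to 13.0% and 11.6% in 4-OHT DMSO. *Defa20* was at 777 and 623 FPKM in EtOH DMSO, 780 and 733 with Nec-1 alone, 2537 and 1773 in 4-OHT DMSO and 1588 with both agents. The first 4-OHT DMSO library stood well above the second, and the log2 fold change of 1.61 had the largest SE among the members (SE 0.20, limma adjusted p = 0.0032). *Defa23* was at 461 and 381 FPKM in EtOH DMSO, 417 and 404 with Nec-1 alone, 1297 and 894 in 4-OHT DMSO and 790 with both agents. As for *Defa20*, its 4-OHT DMSO libraries lay apart, and its log2 fold change was 1.36 (SE 0.20, limma adjusted p = 0.0049).

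*Defa22* was at 233 and 224 FPKM in EtOH DMSO, 225 and 214 with Nec-1 alone, 861 and 725 in 4-OHT DMSO and 490 with both agents. The gene with the same promoter window, *Defa21*, was at 202 and 168 FPKM in EtOH DMSO, 152 and 165 with Nec-1 alone, 727 and 538 in 4-OHT DMSO and 339 with both agents. The log2 fold changes of these genes were close, at 1.79 for *Defa22* (SE 0.11, limma adjusted p = 5.0e-04) and 1.76 for *Defa21* (SE 0.17, limma adjusted p = 0.0016). *Defa5* was at 88.4 and 75.4 FPKM in EtOH DMSO, 84.1 and 82.7 with Nec-1 alone, 399 and 423 in 4-OHT DMSO and 168 with both agents. It had the largest log2 fold change of the 10 (2.32, SE 0.10, limma adjusted p = 3.1e-04). Its share of the family sum was 0.82% and 0.79% in EtOH DMSO and 1.46% and 1.60% in 4-OHT DMSO. *Defa26* was at 54.4 and 48.1 FPKM in EtOH DMSO, 56.5 and 61.3 with Nec-1 alone, 142 and 177 in 4-OHT DMSO and 110 with both agents. Although it was the least abundant member in every group, its log2 fold change of 1.61 (SE 0.13, limma adjusted p = 0.0010) was at the median of the members.

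Centring each library on its median gene, or scaling it to its upper quartile, shifted the median fold change over the genes tested by -0.157 or -0.131 log2 units. The calls over all genes then went from 3117 higher and 2120 lower to 2213 and 3187 with centring and to 2232 and 2976 with upper quartile scaling. All 10 members kept an adjusted p under 0.05 and a higher level in 4-OHT DMSO under these scalings and under the other alternatives tried, 16 in all. The log2 fold change of *Defa5* ran from 2.15 to 2.43 over them, and that of *Defa17*, the lowest, stayed at 0.98 or above. The highest adjusted p under limma was 0.0453, for *Defa24* without the filter on low values.

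The second comparison, EtOH Nec-1 with EtOH DMSO, asks what the inhibitor did without 4-OHT. No alpha-defensin passed an adjusted p of 0.05 under limma, while 0.22% of all genes tested did. At an unadjusted p under 0.05 the count was 0 of 10, against 13.3% of all genes. Log2 fold changes ran from -0.21 (*Defa21*, SE 0.17) to 0.20 (*Defa3*, SE 0.16), with adjusted p from 0.524 to 0.969. Both Nec-1 libraries lay above both DMSO libraries for 3 of 10 members, *Defa3*, *Defa24* and *Defa26*, and for 10.5% of all genes. They lay below both for 1 of 10, *Defa21*, and for 39.1% of all genes. The ratio of summed FPKM was 1.09, a log2 ratio of 0.12.

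The third comparison sets the 1 library of 4-OHT Nec-1 beside 4-OHT DMSO and asks what the inhibitor did in organoids given 4-OHT. It has no replicate check and no test. All 10 members were lower in 4-OHT Nec-1 than in each 4-OHT DMSO library, as were 49.3% of all genes tested, and the count was 9 with upper quartile scaling. Set against the mean 4-OHT DMSO level, the difference ran from -0.42 (*Defa20*) to -1.28 (*Defa5*) on the log2 scale, with a median of -0.51 over the members and -0.081 over all genes. *Defa5* was at least 1 log2 unit below each 4-OHT DMSO library, at -1.24 and -1.33. This count of 1 of 10 stands beside 1.15% of all genes, and it became 2 of 10 without the second 4-OHT DMSO library. For *Defa20* the differences were -0.68 from the first and -0.16 from the second 4-OHT DMSO library, and for *Defa23* -0.71 and -0.18, so that the gap between the 4-OHT DMSO libraries was larger than the mean difference of either gene. The summed FPKM was 0.697 times the mean of 4-OHT DMSO, a log2 ratio of -0.52.

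The 4-OHT Nec-1 library remained above the EtOH libraries. All 10 members were higher in it than in each EtOH Nec-1 library, as were 50.4% of all genes. Log2 differences from the mean of EtOH Nec-1 ran from 0.51 (*Defa3*) to 1.16 (*Defa30*), with a median of 0.97 over the members and 0.076 over all genes. The summed FPKM was 1.69 times that of EtOH Nec-1, a log2 ratio of 0.76. These comparisons share libraries, and their values are set side by side without a test of one against another.

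**Figure D3:**
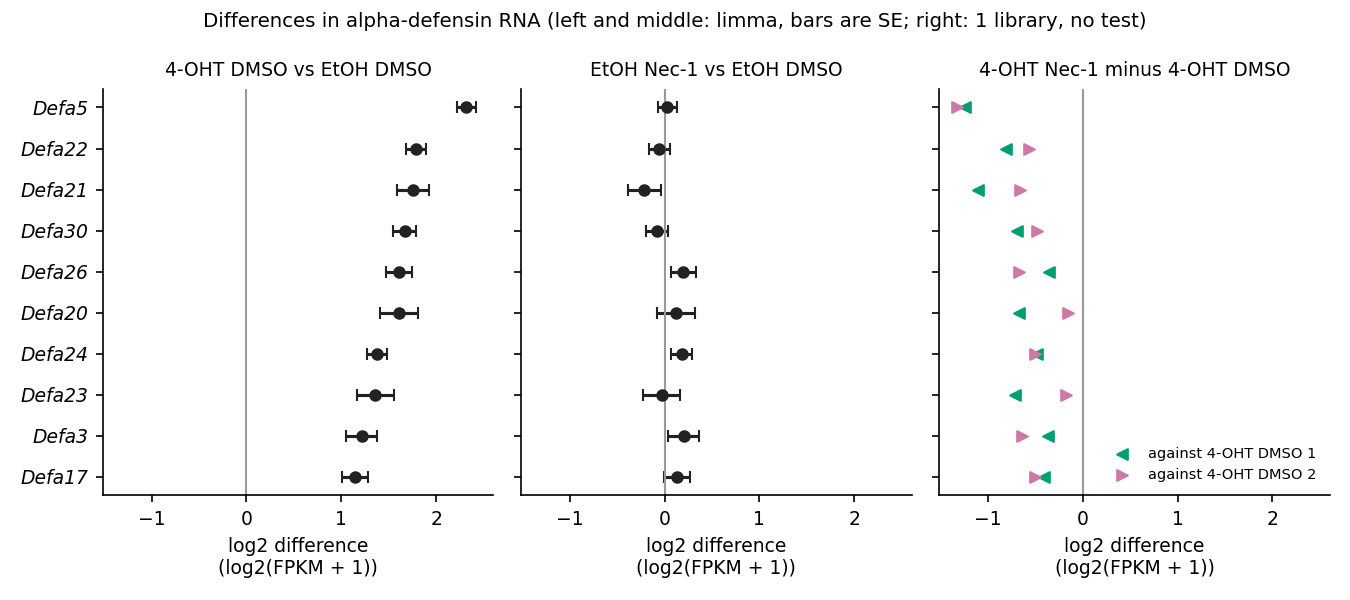
Log2 differences in log2(FPKM + 1) of the 10 alpha-defensins for 4-OHT DMSO against EtOH DMSO and EtOH Nec-1 against EtOH DMSO (limma, bars are SE), and of the 4-OHT Nec-1 library against each 4-OHT DMSO library (no test). Values lie between 1.15 and 2.32 on the left, near 0 in the middle and below 0 on the right.

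The 10 genes were not the whole family. The tables listed 34 other alpha-defensin genes, 17 of them with pseudogene symbols, of which 17 reached 1 FPKM in at least 2 libraries and 10 were at 0 in every library. The 10 members took 77.1% of the summed FPKM of all alpha-defensin genes in each EtOH DMSO library and 71.0% and 71.9% in the 4-OHT DMSO libraries. Of the 17 tested, 14 were higher in 4-OHT DMSO, 0 were lower and 3 did not pass the threshold, with a median log2 fold change of 1.77. The pseudogenes *Defa-ps1* and *Defa-ps6* were at 0 to 2.03 FPKM in the EtOH libraries, where the pseudocount shortens the fold change.

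*Defa2*, which shares its promoter window with *Defa20*, was at 611 and 559 FPKM in EtOH DMSO, 701 and 592 with Nec-1 alone, 2426 and 1830 in 4-OHT DMSO and 1364 with both agents. Its log2 fold change was 1.85 (SE 0.17, limma adjusted p = 0.0013), beside 1.61 for *Defa20*. *Defa31*, which shares its window with *Defa23*, was at 310 and 258 FPKM in EtOH DMSO, 259 and 268 with Nec-1 alone, 856 and 1061 in 4-OHT DMSO and 488 with both agents. The log2 fold change of *Defa31* was 1.75 (SE 0.14, limma adjusted p = 0.0010), beside 1.36 for *Defa23*. In this pair the replicates went opposite ways, since the first 4-OHT DMSO library was the higher one for *Defa23* and the lower one for *Defa31*. *Defa-ps7* was at 23.8 FPKM in the first and 0.289 FPKM in the second 4-OHT DMSO library, and *Defa35* at 49.8 and 10.4. How fragments were divided between such copies was not tested. The summed FPKM of all alpha-defensin genes, in which the copies are pooled, gave a log2 ratio of 1.51 for 4-OHT DMSO over EtOH DMSO, 0.10 for EtOH Nec-1 over EtOH DMSO and -0.56 for 4-OHT Nec-1 over 4-OHT DMSO.

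Beta-defensins, a related family made by many epithelia, were mostly not detected. Of 43 listed, 38 were at 0 in every library and 1, *Defb37*, reached 1 FPKM in at least 2 libraries without passing the threshold in either limma comparison. *Defb37* was named after its values were seen.

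Other genes of Paneth cells were taken from a list of 20, of which 19 were tested. In 4-OHT DMSO against EtOH DMSO, 12 were higher, 2 were lower and 5 did not pass, with a median log2 fold change of 0.62. These 14 calls became 8, all higher, when either EtOH DMSO library was left out, and 9 with median centring. *Mmp7*, the protease that activates the precursors, was at 51.7 and 46.4 FPKM in EtOH DMSO, 64.4 and 59.6 with Nec-1 alone, 256 and 256 in 4-OHT DMSO and 159 with both agents. Its group means had the same order as those of the family sum, over a wider range. Its log2 fold change was 2.36 (SE 0.089, limma adjusted p = 2.6e-04). *Lyz1*, the Paneth cell lysozyme, was at 852 and 783 FPKM in EtOH DMSO, 944 and 859 with Nec-1 alone, 1639 and 1595 in 4-OHT DMSO and 1518 with both agents. Its log2 fold change of 0.98 (SE 0.10, limma adjusted p = 0.0018) was below that of each of the 10 alpha-defensins, a difference that was not tested, and its 4-OHT Nec-1 value lay near those of 4-OHT DMSO. The family sum was 12.7 and 12.2 times *Lyz1* in EtOH DMSO, 11.8 and 12.8 times with Nec-1 alone, 16.7 and 16.6 times in 4-OHT DMSO and 12.3 times with both agents. Relative to *Mmp7* the sum went the other way, at 209 and 206 times in EtOH DMSO and 107 and 103 times in 4-OHT DMSO. It was 173 and 185 times *Mmp7* with Nec-1 alone and 118 times with both agents.

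Several secreted antimicrobial proteins of the list were called. The ribonuclease *Ang4* rose with a log2 fold change of 2.20, the phospholipase *Pla2g2a* with 1.84, the lectin *Itln1* with 1.14 and the C-type lectin *Reg3g* with 1.99. *Ang4* was at 1180 and 1269 FPKM in 4-OHT DMSO and at 1164 in 4-OHT Nec-1, so that, like *Lyz1*, it was little lower with the inhibitor. *Mptx2*, a pentraxin of Paneth cells, went from 1.82 and 1.68 FPKM in EtOH DMSO to 35.7 and 18.7 in 4-OHT DMSO (log2 fold change 3.29, SE 0.30, limma adjusted p = 0.0014). Lower were *Reg3a* (log2 fold change -1.24) and the Notch ligand *Dll4* (-0.48), neither of which passed when either EtOH DMSO library was left out. Between EtOH Nec-1 and EtOH DMSO, 0 of the 19 passed an adjusted p of 0.05 under limma, 9 had an unadjusted p under 0.05 (13.3% of all genes did), and 3 passed as lower when only the 4 libraries of that comparison were fitted or when either 4-OHT DMSO library was left out.

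**Figure D4:**
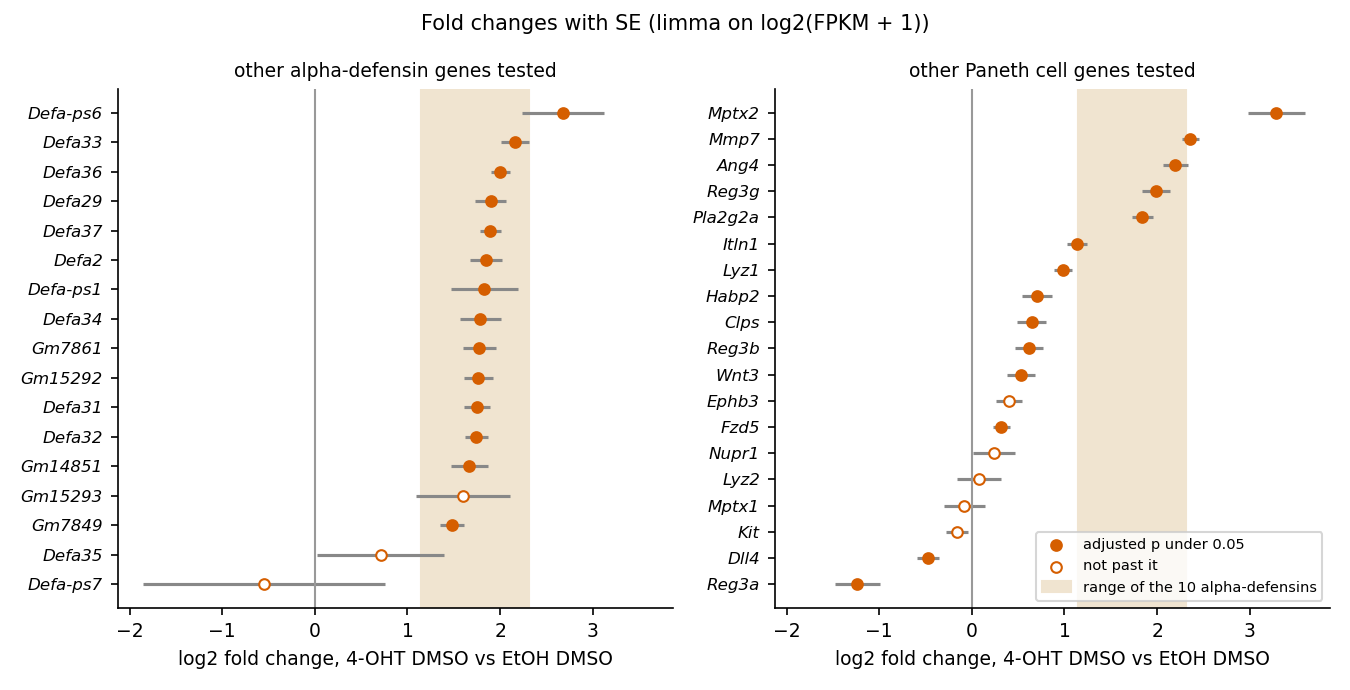
Log2 fold changes with SE, 4-OHT DMSO against EtOH DMSO, of the 17 other alpha-defensin genes tested and of the 19 other Paneth cell genes tested. Filled points passed an adjusted p of 0.05, and the shaded band spans the 10 alpha-defensins, 1.15 to 2.32.

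Of 10 regulators of the Paneth and secretory lineage, 8 were tested. In 4-OHT DMSO against EtOH DMSO, 2 were higher, 1 was lower and 5 did not pass. Over all genes tested, 24.5% were higher and 16.7% lower. The median log2 fold change of the regulators was 0.26. *Atoh1*, the transcription factor that commits cells to the secretory lineage, was at 6.64 and 8.81 FPKM in EtOH DMSO and at 15.9 and 15.6 in 4-OHT DMSO (log2 fold change 0.95, SE 0.13, limma adjusted p = 0.0045). In 4-OHT Nec-1 it was at 9.60 FPKM. *Bhlha15* was higher (log2 fold change 0.47), a call that held in 8 of 16 alternatives and not with median centring, and *Xbp1*, a factor of the unfolded protein response in secretory cells, was lower (-0.61). *Spdef* (log2 fold change 0.26), *Tcf7l2* (0.25), *Ctnnb1* (-0.21) and *Dll1* (-0.10) did not pass. *Sox9*, needed for Paneth cells to form, had a log2 fold change of 0.49 and did not pass (SE 0.15, limma adjusted p = 0.0527). It passed in 2 of 16 alternatives, with 1 FPKM required in every library and without the second EtOH DMSO library (adjusted p = 0.0278).

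Genes of other epithelial cells moved in the same comparison. Among goblet cell markers 7 of 8 tested were higher and among enteroendocrine markers 8 of 8, with median log2 fold changes of 1.02 and 0.90. With median centring these counts were 5 and 8. The goblet markers, which include *Atoh1* and *Spdef*, summed to 1333 to 1423 FPKM in EtOH DMSO and to 2109 to 2422 in 4-OHT DMSO, and the enteroendocrine markers to 267 to 289 and 542 to 610. Of stem cell markers 0 of 7 were higher and 3 were lower, of enterocyte markers 3 of 9 were higher and 4 lower, and of proliferation markers 0 of 6 were higher and 2 lower. The lower counts did not all hold, since without the second EtOH DMSO library 1 stem cell marker was called, and without the first EtOH DMSO, the second 4-OHT DMSO or either EtOH Nec-1 library 0 proliferation markers were. Immune markers, of which 2 of 6 were tested and 1 was higher, summed to 2.81 to 3.31 FPKM in EtOH DMSO and 6.32 to 8.72 in 4-OHT DMSO. The single tuft cell marker tested was higher, though not with median centring, and the single fibroblast marker did not pass. The part of these shifts in the alpha-defensin result was not tested.

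**Figure D5:**
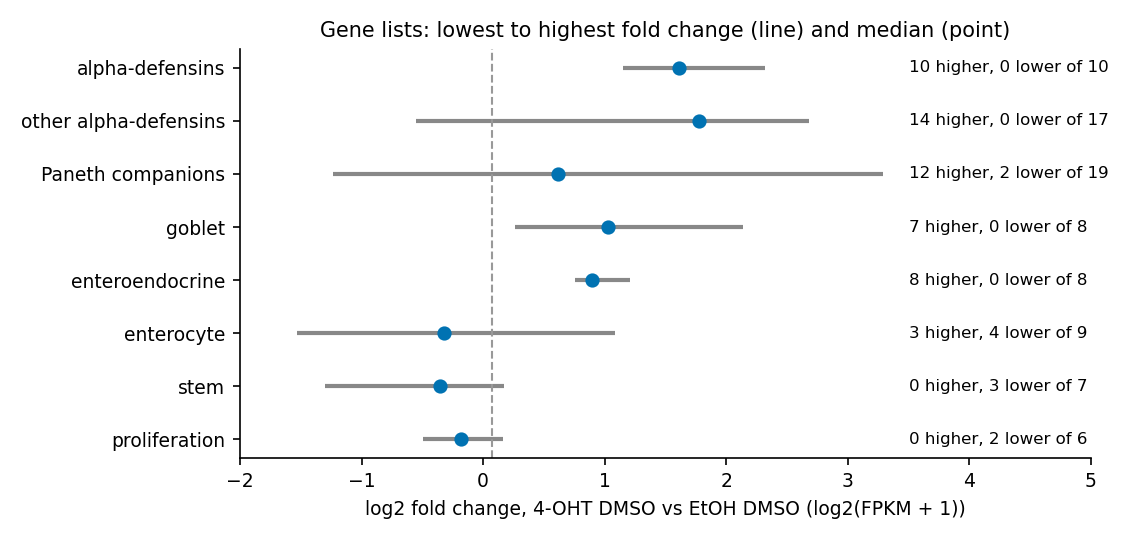
Lowest to highest log2 fold change (line) and median (point), 4-OHT DMSO against EtOH DMSO, of the genes tested in each list, with the counts past an adjusted p of 0.05 on the right and the median of all genes, 0.077, as the dashed line. The lists of alpha-defensins lie to the right of the goblet and enteroendocrine lists by median, and the stem, enterocyte and proliferation medians lie below 0.

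Across the 7 libraries, log2 levels of the 10 members followed each other, with Pearson's r from 0.913 to 0.999 over 45 pairs and a median of 0.975. These points share libraries and fall mainly into a high and a low set, so r describes the same split for each pair. Outside the family, the 5 genes with the highest r to log2 of the family sum were *Galnt3* (0.996), which begins O-linked glycosylation of proteins, *Mmp7* (0.996), *Tigar* (0.996), a fructose bisphosphatase, *Tmed5* (0.995), a cargo protein of the early secretory pathway, and *Pla2g2a* (0.995). *Galnt3* was at 22.6 and 22.5 FPKM in EtOH DMSO, 23.8 and 24.0 with Nec-1 alone, 34.9 and 34.7 in 4-OHT DMSO and 30.1 with both agents. Its group means thus had the order of those of the family sum, over a narrower range. Among the listed Paneth cell genes r was lowest for *Dll4* (-0.648).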

How the data were processed

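RNA-seq of 7 organoid libraries in 4 groups was analysed, and 2 CUT&Tag samples were not analysed here. The values the authors deposited are FPKM, listed by Ensembl gene for each library. The submitters' processing notes name HISAT2 2.1.0, StringTie 1.3.3b and mm10, without their roles, and the annotation release is not given in the sources used here. In 1 table, 2 further columns repeated libraries of other tables and were not used, and 0 columns lacked a sample. Of 54838 identifiers, 54723 matched a symbol.

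From the deposited FPKM, log2(FPKM + 1) was computed and fitted with limma 3.58.1 (mean-variance trend) in R 4.3.3 over 12702 genes (those reaching 1 FPKM in 2 or more libraries), with 1 mean per group, 3 residual degrees of freedom and Benjamini-Hochberg adjustment over all of them (threshold 0.05). The fit was tested on simulated data. A count test had been planned for files of counts and was not needed. Differences from the 1 library of 4-OHT Nec-1 carry no test. Tables and plots were made with Python 3.11.15, pandas 2.3.3 and matplotlib 3.10.9. Depths relative to the first EtOH DMSO library were estimated as 0.850 to 1.03. They are the inverse of the most frequent FPKM ratio over genes low in both libraries. This assumes that such genes hold the same fragment number in both, which was not tested. Genes named are the 10 members, other alpha-defensins reaching 1 FPKM in 2 libraries, the Paneth cell and regulator lists, *Mettl3* and the 5 genes most like the family sum. *Galnt3*, *Tigar* and *Tmed5* came in through the last rule, and *Defb37* falls outside these rules. The members, the lists and the tests were chosen with earlier results of these data known. Alternatives tried were median centring, upper quartile scaling, no trend in limma, other filters and pseudocounts (0.1 and 0.25), the replicate block, only the 4 libraries of a comparison and each library left out in turn.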

Additional observations from a re-analysis of the deposited data

Results flagged for a closer look

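For 3 of 10 members every Nec-1 library lay on one side of its DMSO libraries without 4-OHT and on the other side with it. Without 4-OHT they lay above, as did 10.5% of all genes tested, and with it below, as did 49.3%. The share of all genes with both was not counted. The differences without 4-OHT did not pass an adjusted p of 0.05 under limma. The log2 difference of *Defa3* was 0.20 for EtOH Nec-1 against EtOH DMSO and -0.50 for 4-OHT Nec-1 against 4-OHT DMSO. For *Defa24* the same differences were 0.18 and -0.50, and for *Defa26* 0.20 and -0.52. The difference between these differences was not tested, since 4-OHT Nec-1 has 1 library.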

How the results depend on the processing

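All 10 members kept their call in 4-OHT DMSO against EtOH DMSO under 16 alternatives, and 0 were called for EtOH Nec-1. The replicate number as a block, which the labels give without saying what it marks, left 10 and 0 members and 12 and 0 Paneth cell genes called. Same-numbered libraries did not deviate together (correlations of deviations -0.0402, 0.0065 and -0.0120). Of the Paneth cell list, 14 genes were called in 4-OHT DMSO against EtOH DMSO, 9 with median centring, 8 without the filter on low values and 8 to 14 with 1 library left out. For EtOH Nec-1 it was 3 when 4 libraries alone were fitted and 0 to 3 with 1 left out. Members at least 1 log2 unit down in 4-OHT Nec-1 numbered 1 to 2 with 1 library left out.

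The log2 ratio of the family sum for 4-OHT DMSO over EtOH DMSO was 1.24 with median centring, 1.23 with upper quartile scaling, 1.51 over all alpha-defensin genes and 1.31 to 1.49 with 1 library left out. For EtOH Nec-1 over EtOH DMSO it was 0.22, 0.23 and, with 1 left out, 0.033 to 0.21. For 4-OHT Nec-1 over 4-OHT DMSO it was -0.41 and -0.39 under the scalings, and over EtOH Nec-1 0.62 and 0.62, with 0.85 over all alpha-defensin genes.

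Signs that turned belonged to values that did not pass the threshold. For EtOH Nec-1 against EtOH DMSO, median centring and upper quartile scaling gave 0.044 and 0.053 for *Defa22*, 0.068 and 0.076 for *Defa23*, and 0.022 and 0.031 for *Defa30*. With 1 library left out, *Defa5* ran from -0.083 to 0.14, *Defa17* from -0.026 to 0.29, *Defa20* from -0.040 to 0.28 and *Defa23* from -0.17 to 0.11. For 4-OHT DMSO against EtOH DMSO, *Lyz2* was -0.078 with median centring, and with 1 library left out *Lyz2* ran from -0.12 to 0.28, *Mptx1* from -0.37 to 0.21, *Nupr1* from -0.021 to 0.50, *Spdef* from -0.10 to 0.62, *Ctnnb1* from -0.48 to 0.051, *Defa-ps7* from -2.69 to 1.58 and *Defa35* from -0.37 to 1.79. The cause was not tested.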

Other observations

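Further genes of the Paneth cell list changed by less than the alpha-defensins' smallest log2 fold change of 1.15. In 4-OHT DMSO against EtOH DMSO the limma fit called *Habp2*, a serine protease that binds hyaluronan (log2 fold change 0.71, adjusted p = 0.0205), *Clps*, pancreatic colipase (0.65, adjusted p = 0.0237), *Reg3b*, a C-type lectin (0.62, adjusted p = 0.0259), the Wnt ligand *Wnt3* (0.53, adjusted p = 0.0421) and the Wnt receptor *Fzd5* (0.32, adjusted p = 0.0353). *Wnt3* was at 0.847 and 0.942 FPKM in EtOH DMSO and at 1.44 and 2.07 in 4-OHT DMSO, a low level at which the pseudocount shortens the fold change. None of these 5 passed with median centring, where the adjusted p was 0.0562 for *Habp2*, 0.0560 for *Clps*, 0.0639 for *Reg3b*, 0.10 for *Wnt3* and 0.165 for *Fzd5*. Over all alternatives *Habp2* held in 12 of 16, *Clps* in 11 of 16, *Reg3b* in 7 of 16, *Wnt3* in 5 of 15 and *Fzd5* in 6 of 16, and each lost its call without at least 1 of the EtOH DMSO libraries. The receptors *Ephb3* (0.40, adjusted p = 0.0731) and *Kit* (-0.16, adjusted p = 0.336) did not pass.

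Reg3 genes had another pattern over the groups than the alpha-defensins. *Reg3g* was at 25.4 and 29.3 FPKM in EtOH DMSO, 13.6 and 14.5 with Nec-1 alone, 128 and 97.2 in 4-OHT DMSO and 128 with both agents. Its libraries with Nec-1 alone were thus lowest, with a log2 fold change of -0.91 that did not pass (limma adjusted p = 0.134), and its 4-OHT Nec-1 library was as high as the higher 4-OHT DMSO library. *Reg3a* was at 18.1 and 16.6 FPKM in EtOH DMSO, 4.96 and 4.51 with Nec-1 alone, 9.07 and 5.02 in 4-OHT DMSO and 7.48 with both agents.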
